A study of Homo sapiens with 3 samples.

Results

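The mucin genes MUC1, MUC3A, MUC4, MUC5AC, MUC5B, MUC6, MUC12, MUC13, MUC17 and MUC20 were examined in HT29 cells grown on 3 substrates. These 10 genes are the membrane-bound and gel-forming mucins of the gut and stomach other than MUC2. The rule for members uses gene symbols and no measured value, but the members were chosen with earlier results of these data known. Of the 21614 genes that could be named on the array, 8 were members of this set, with 19 probes among the 50599 that were not controls. No probe was matched to MUC5AC or MUC20, which were not analysed here.

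HT29 is an established human colon adenocarcinoma line, for which the labels name no genetic change or added agent, and all groups were grown in the same serum-containing medium. The group named 2D in the labels grew on tissue culture polystyrene plates (TCP). The group named chitosan grew on a chitosan membrane (CS), a film of deacetylated chitin, and the group named chitosan_HA on a chitosan membrane grafted with the matrix polysaccharide hyaluronan (CSHA). RNA of each substrate went to 1 array, so n = 1 per group. No difference could be checked against a second array, and no p-value was computed. The time on each substrate, and whether an array held RNA of 1 culture or of several, are not given in the sources used here.

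Mucins are large glycoproteins whose serine- and threonine-rich repeats carry dense O-linked sugar chains. Membrane mucins (MUC1, MUC3A, MUC4, MUC12, MUC13, MUC17 and MUC20) are anchored in the apical surface of epithelial cells, form the glycocalyx and carry a cytoplasmic tail, while gel-forming mucins (MUC5AC, MUC5B and MUC6) are secreted and polymerize into mucus. In the healthy colon the secreted gel is built mainly of MUC2, and MUC5AC and MUC6 are better known from the stomach. In the RefSeq gene order MUC3A, MUC12 and MUC17 are neighbours on chromosome 7, MUC20 and MUC4 on chromosome 3, and MUC5AC and MUC5B on chromosome 11.

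The signal of a probe is the brightness of its spot after background subtraction, in arbitrary units, and it says nothing of the level of 1 gene against another. Differences between substrates are on the log2 scale, after each array was shifted by its 75th percentile, a signal of 354 for the TCP array, 423 for the CS array and 337 for the CSHA array. The ± beside a difference combines the errors that the scanner software assigned to the signals. It describes the measurement of a spot and not the spread between cultures. For the brightest probes it came to 0.20, and a difference beyond it is not the result of a test. On every array, probes printed 10 times had a median SD of between 0.047 and 0.056 among spots well above background and between 0.21 and 0.24 among dim spots. Each mucin probe was printed once and none was flagged as an outlier. A probe that was well above background on only 1 of the arrays compared has a lower bound, written "at least", in place of a difference. A difference of 1, which is 2-fold, served as the rule of size. The arrays lay on 1 slide, between 48.6% and 51.1% of the probes were well above background, and no spot was saturated.

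As a check of the label, the 10 markers of colon epithelium were well above background on CS and CSHA, and 9 of them on TCP. Divided by the 75th percentile, their summed signal was 1013 for TCP, 974 for CS and 1070 for CSHA. Of 10 stromal and immune markers, 5 were well above background on TCP and 3 on each membrane, with sums between 0.82 and 1.03. PTPRC, PECAM1 and CD68 were well above background on all arrays, with CD68 at 0.80 on CS and 1.01 on CSHA relative to TCP. By their brightest probes PTPRC and PECAM1 were within their errors of TCP, while another PTPRC probe was at -1.88 on CS and -1.45 on CSHA. SPARC and VIM were well above background on TCP alone. Their bounds were -0.74 and -0.48 on CS and -0.31 and -0.06 on CSHA, each smaller than its error. COL1A1, COL1A2, COL3A1, DCN and LUM were well above background on no array. Of 8 hepatocyte markers, 2 were above it on TCP and 3 on each membrane, with sums between 5.18 and 5.86. SERPINA1 was detected throughout, with a signal of 1827 on TCP, and TTR was at least 2.63 higher on CS and at least 3.20 higher on CSHA, while ALB and AFP were not well above background on any array. The part of such cells in the mucin values was not tested. In RNA from a whole culture, a change in the share of cells that make a mucin and a change in the RNA per cell cannot be told apart.

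MUC1 was the mucin that stood higher on the membranes by the most, MUC17 was detected on TCP and on neither membrane, and MUC4, MUC6 and MUC13 lay within 0.4 of TCP. MUC5B and MUC12 were not well above background on any array. MUC3A differed between its own probes. Of the 8 mucins with a probe, 6 were well above background on at least 1 array and 5 on all arrays. At the level of probes, 7 of 19 were well above background on all arrays and 7 on none, as the plot of all probes shows.

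**Figure D1:**
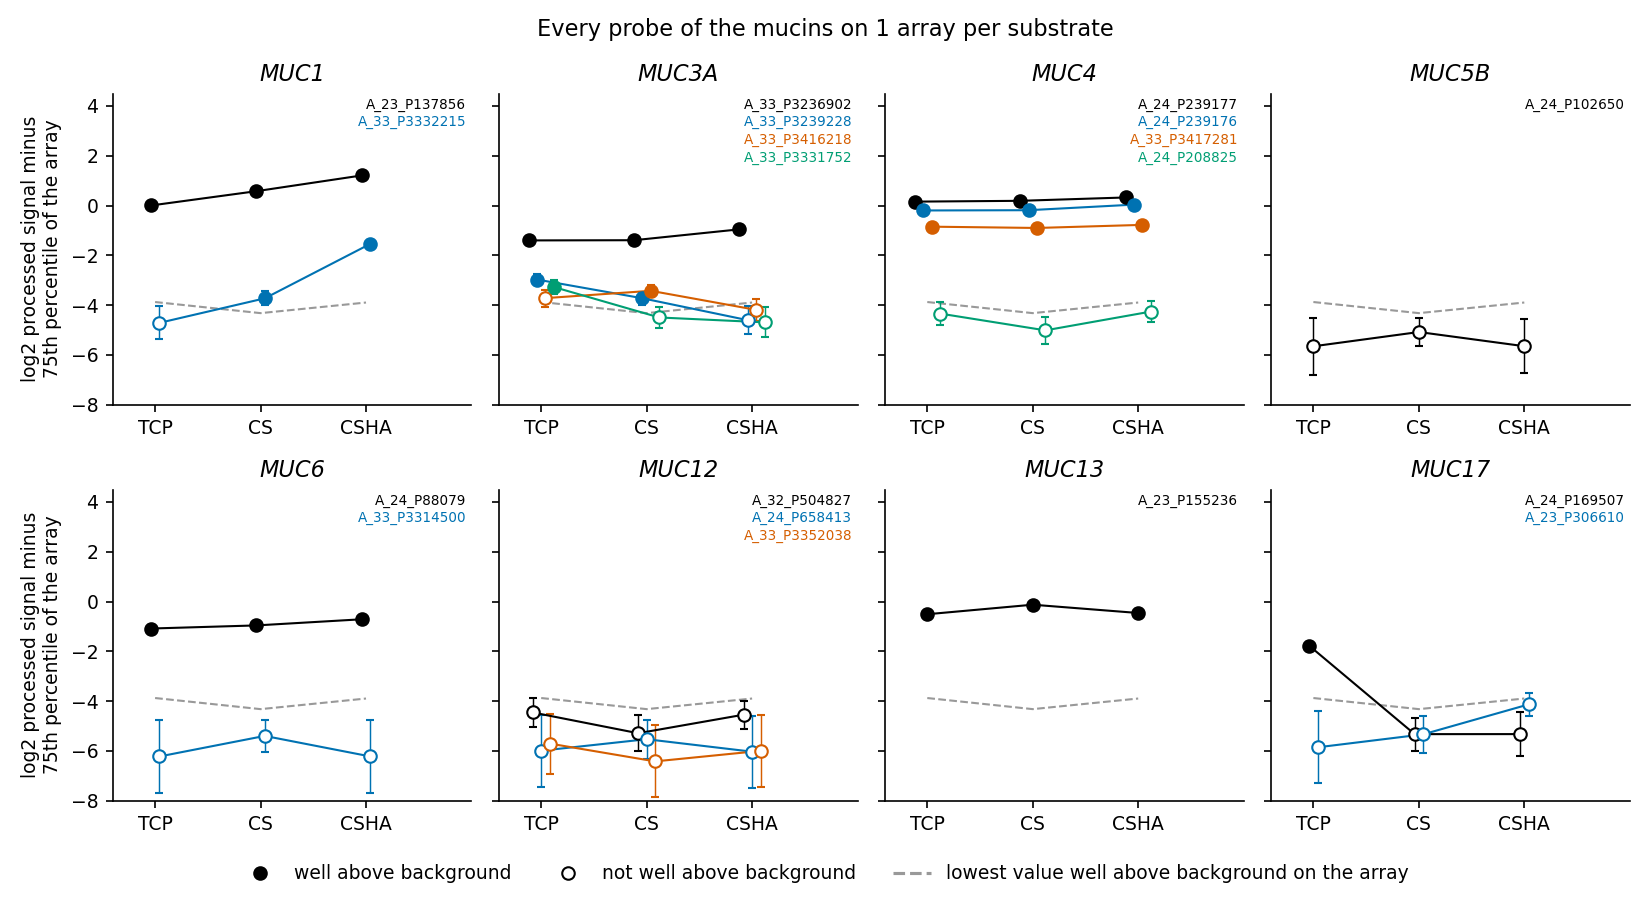
Each panel plots the probes of 1 mucin on TCP, CS and CSHA (x axis, 1 array each) as log2 processed signal minus the 75th percentile of the array (y axis), with bars for the scanner software's error and open circles where a probe was not well above background. The brighter MUC1 probe stands highest on CSHA, the brighter MUC17 probe is filled on TCP alone, and every MUC12 and MUC5B circle is open.

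MUC1 is a membrane mucin found on most glandular epithelia, whose tail is phosphorylated and binds signaling proteins. Its brighter probe, A_23_P137856, had a signal of 354 on TCP, 630 on CS and 779 on CSHA. Levels were ordered TCP, then CS, then CSHA, and each step was larger than its measurement error. CS exceeded TCP by 0.57 ± 0.21, or 1.49-fold. CSHA exceeded TCP by 1.21 ± 0.21, or 2.31-fold, and CS by 0.63 ± 0.20, or 1.55-fold. The second probe of MUC1, A_33_P3332215, is annotated to another transcript of the gene. It had a signal of 13.5 on TCP, which was not well above background, 31.9 on CS and 116 on CSHA. By this probe CSHA was at least 2.34, or at least 5.05-fold, above TCP. CS was at least 0.15 above TCP, a bound smaller than the error of 0.72, so the probe did not order TCP and CS. Between the membranes this probe differed by 2.19 ± 0.32, or 4.55-fold, against 1.55-fold for the brighter probe. The size of the difference between CSHA and CS thus depended on the probe, while its direction was shared.

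MUC17, MUC3A and MUC12 are large membrane mucins of the intestinal brush border. MUC17 was represented by A_24_P169507, with a signal of 103 on TCP, 10.5 on CS and 8.41 on CSHA. It was well above background on TCP alone. The membranes were lower than TCP by a bound of -2.55 on CS, at least 5.85-fold, and of -2.12 on CSHA, at least 4.36-fold. The membranes themselves could not be compared. The second MUC17 probe, A_23_P306610, had signals of 6.11, 10.5 and 19.2 on TCP, CS and CSHA and was not well above background on any of them. The difference of MUC17 therefore rests on 1 spot of 1 probe on the TCP array. An alternative handled the background by normexp, a model of signal plus noise, and then added 50 to every signal. An added constant makes the differences of dim probes smaller. With this alternative A_24_P169507 gave -1.24 for CS and -1.03 for CSHA. The deposited log2 values gave -1.41 and -1.15.

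MUC3A had 4 probes to 1 RefSeq transcript, and they did not move together. The brightest, A_33_P3236902, had signals of 134, 161 and 174 on TCP, CS and CSHA. By this probe CS and TCP differed by 0.0080 ± 0.21 and CSHA was above TCP by 0.45 ± 0.21. A_33_P3239228 had signals of 45.1 on TCP, 31.9 on CS and, not well above background, 13.8 on CSHA. It was lower on CS, at -0.75 ± 0.35, and lower on CSHA by a bound of -0.92. A_33_P3331752 had a signal of 36.6 on TCP and was not well above background on CS, at 18.7, or CSHA, at 13.0. This gave bounds of -1.05, with an error of 0.48, and of -0.62, which was smaller than its error of 0.65. A_33_P3416218 was well above background on CS alone, with signals of 26.9, 39.3 and 18.4. Its bound there was 0.29 above TCP, smaller than the error of 0.42, so it did not order TCP and CS. The 3 dimmer probes thus lay near the limit of detection. On CSHA the brightest MUC3A probe was above TCP and A_33_P3239228 was below it, with an error of 0.61 for its bound. A_33_P3331752 did not order TCP and CSHA, and A_33_P3416218 could not be compared between them. MUC3A has a described close relative, MUC3B, and whether these probes also bind its RNA was not tested. MUC12, the neighbour of MUC3A and MUC17, had 3 probes with signals between 4.93 and 16.1 over the arrays, none of them well above background.

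MUC4, a very large membrane mucin known as a partner of the receptor ERBB2, was measured by 3 probes on all arrays, whose differences lay close together. A_24_P239177 had signals of 394 on TCP, 482 on CS and 422 on CSHA. A_24_P239176 had signals of 308, 371 and 346, and A_33_P3417281 of 196, 226 and 197. On CS the probes were at 0.03, 0.01 and -0.05 relative to TCP, each within its error of 0.21. On CSHA they were at 0.17, 0.23 and 0.07, of which the second exceeded its error of 0.21. TCP and CS could not be ordered for MUC4, and its sign on CS turned to -0.018 when the 75th percentile was taken over detected probes. The fourth probe, A_24_P208825, was not well above background on any array.

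MUC13, a smaller membrane mucin of the gastrointestinal tract with EGF-like domains, had its highest value on CS after the 75th percentile shift. Its probe A_23_P155236 had a signal of 248 on TCP, 387 on CS and 245 on CSHA. CS was above TCP by 0.38 ± 0.21, or 1.30-fold. CSHA was below CS, at -0.33 ± 0.21, and within its error of TCP, at 0.05 ± 0.21. With scaling to spike-in probes CSHA was at 0.48 relative to TCP and at 0.043 relative to CS, so that the order of the membranes turned. The difference between CSHA and TCP changed sign, to -0.0094, with the percentile over detected probes.

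The gel-forming mucin MUC6, known from gastric glands, was measured by A_24_P88079 with signals of 167 on TCP, 217 on CS and 206 on CSHA. It was above TCP by 0.13 ± 0.21 on CS, within its error, and by 0.37 ± 0.21, or 1.29-fold, on CSHA. CSHA was above CS by 0.25 ± 0.21. A second MUC6 probe was not well above background on any array. MUC5B, a gel-forming mucin of airways and salivary glands, had 1 probe with signals of 7.02, 12.5 and 6.71, none well above background. With 1 dim probe, a low MUC5B level cannot be told apart from a probe that does not report, and no difference was computed.

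**Figure D2:**
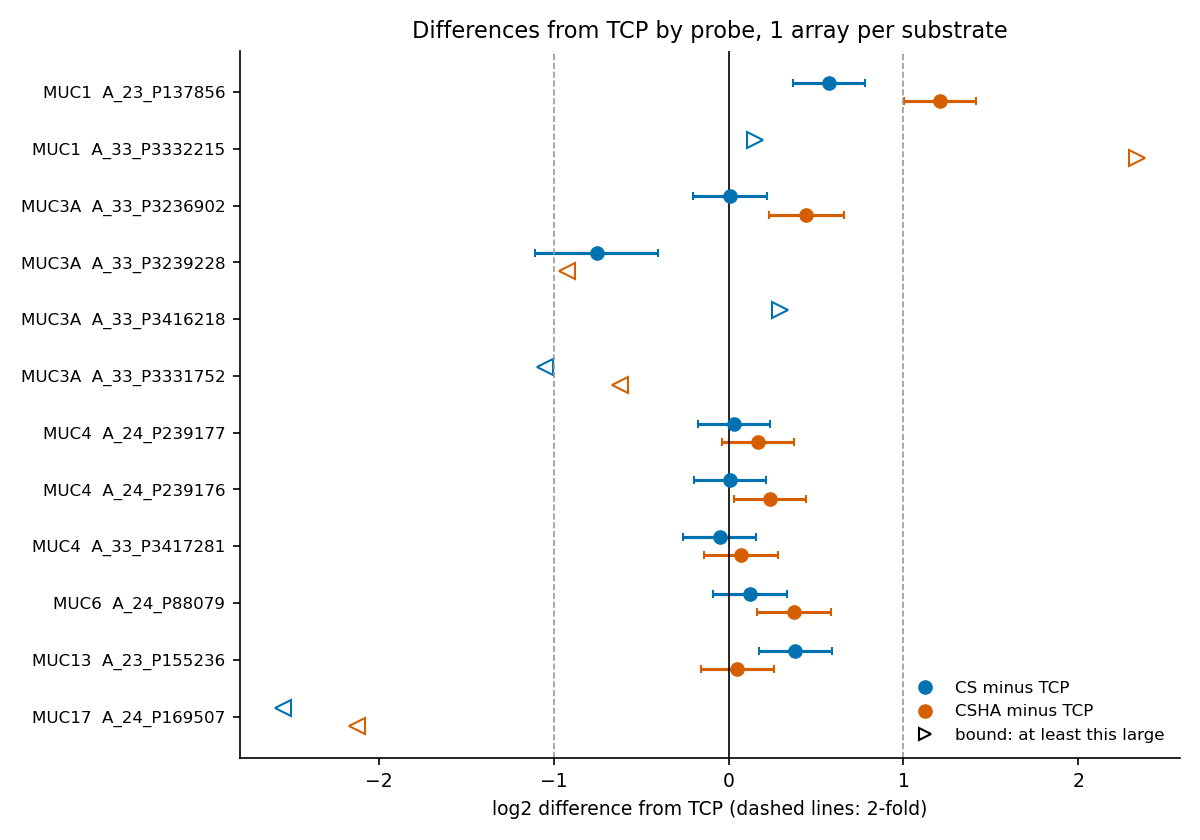
The log2 difference from TCP (x axis) is plotted for each of the 12 probes well above background on at least 1 array (y axis), with CS in blue and CSHA in orange, bars for measurement error, triangles for lower bounds pointing away from 0 and dashed lines at 2-fold. The MUC1 probes lie to the right of 0 on both membranes, the MUC17 probe lies at -2.55 and -2.12, and the MUC4 probes lie between -0.05 and 0.23.

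Over the 7 probes measured on all arrays, 6 were higher and 1 was lower on CS than on TCP, with 2 differences beyond their error, against 39.9% of the 18062 named probes measured on all arrays. On CSHA all 7 were higher than on TCP, with 4 beyond their error, against 61.6% of the named probes. Between the membranes, 6 were higher on CSHA and 1, that of MUC13, was lower, with 5 beyond their error, against 50.4%. Among the same 18062 named probes, 54.8% had a positive difference for CS against TCP, 59.1% for CSHA against TCP and 56.3% for CSHA against CS. Of the 7 mucin probes, 3 belong to MUC4, so the probes are not independent of each other. With so few probes, these counts do not set the mucins apart from the other probes. Of all genes compared, 56.8% were higher on CS and 61.7% on CSHA than on TCP. Between the membranes, 58.5% had their higher value on CSHA. Scaling the arrays to 7 spike-in probes in place of the 75th percentile moved the median of all genes on CSHA from 0.13 to 0.56.

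Counted by gene, with the brightest probe for each, 6 mucins could be compared between CS and TCP. None was at least 2-fold higher, against 1.37% of 14464 genes, and 1, MUC17, was at least 2-fold lower, against 1.92%. Between CSHA and TCP 6 could be compared. MUC1 was at least 2-fold higher, against 3.02% of 14623 genes, and MUC17 at least 2-fold lower, against 3.98%. Between CSHA and CS 5 mucins could be compared, and none was at least 2-fold higher or lower, against 2.27% and 2.15% of 14599 genes. A count of 1 gene in a set of this size cannot be set apart from these shares. The median difference of the mucins was 0.08 on CS and 0.27 on CSHA, where the medians of all genes were 0.04 and 0.13. When the probes of a gene were averaged, the median of the mucins on CSHA was 0.10, against 0.10 for all genes. Between CSHA and CS the median by the brightest probe was 0.25, against 0.07 for all genes. With averaged probes it was 0.16, against 0.05. The comparisons with TCP share the TCP array, and those with CS share the CS array, so they are not independent of each other.

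**Figure D3:**
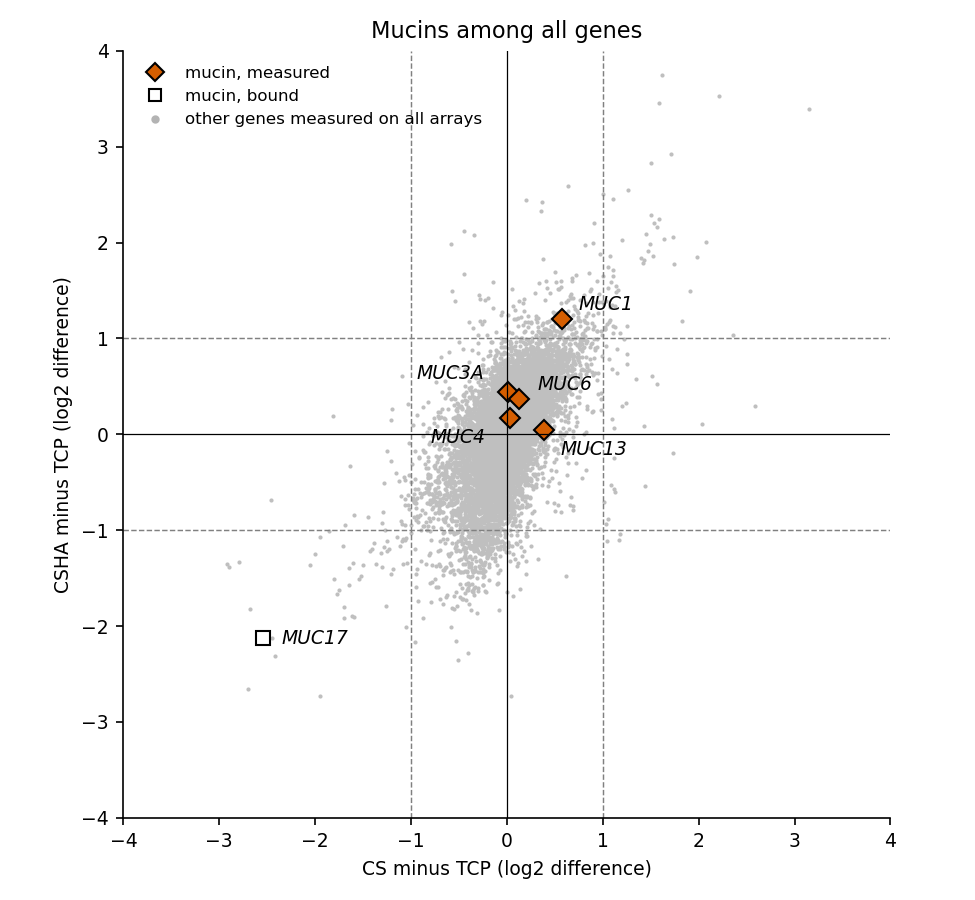
Each grey point is 1 of the genes measured on all arrays, plotted by its log2 difference of CS from TCP (x axis) and of CSHA from TCP (y axis), with the mucins as orange diamonds, MUC17 as an open square at its bounds and dashed lines at 2-fold. MUC1 lies at 0.57 and 1.21 in the upper right of the cloud, MUC3A, MUC4, MUC6 and MUC13 lie inside it, and MUC17 lies at the lower left.

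Among the 13484 genes measured on all 3 arrays, the 3 whose pair of differences from TCP was nearest to that of MUC1 were NDRG1, a stress-responsive gene, at 0.57 and 1.23, the small nucleolar RNA SNORA73A at 0.57 and 1.24, and CIMAP1B at 0.55 and 1.18. Their Euclidean distances from MUC1 were 0.019, 0.034 and 0.041, each smaller than the measurement error of MUC1. With 3 arrays the likeness rests on 2 differences that share TCP.

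The upstream sequences of MUC1 and MUC17 are printed because these were the mucins beyond 2-fold, in opposite directions. They are the 250 bases before the RefSeq start of each gene in GRCh38.p14, in the direction of transcription, MUC1 from chr1:155192916-155193165 on the minus strand and MUC17 from chr7:101019831-101020080 on the plus strand. Capitals mark matches, on either strand, to TATAAA (the TATA box), GGGCGG (the GC box that SP1 binds), GATAA (bound by GATA factors) and TTTAT (the core of CDX sites).
MUC1: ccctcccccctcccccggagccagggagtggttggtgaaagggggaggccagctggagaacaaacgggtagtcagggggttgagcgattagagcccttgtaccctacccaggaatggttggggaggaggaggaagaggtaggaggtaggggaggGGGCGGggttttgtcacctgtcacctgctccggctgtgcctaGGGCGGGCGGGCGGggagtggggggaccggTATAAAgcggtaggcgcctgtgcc
MUC17: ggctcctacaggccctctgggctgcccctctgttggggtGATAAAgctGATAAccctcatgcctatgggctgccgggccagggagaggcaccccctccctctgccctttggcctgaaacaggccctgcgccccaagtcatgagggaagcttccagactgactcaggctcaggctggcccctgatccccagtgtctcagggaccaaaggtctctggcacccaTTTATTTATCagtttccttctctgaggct
The MUC1 stretch held 4 matches to GGGCGG, of which those in the longer run overlap, 1 to TATAAA and 1 to TTTAT, read on the other strand inside TATAAA. The MUC17 stretch held 3 matches to GATAA and 3 to TTTAT, some of them overlapping, and none to GGGCGG or TATAAA. Of 27305 promoters of the same length, 42.3% held GGGCGG, 11.1% TATAAA, 21.0% GATAA and 33.7% TTTAT. An upstream sequence was found for 6 of the mucins, of which 3 held GGGCGG, 2 TATAAA, 2 GATAA and 3 TTTAT. These matches describe letters in a window and are not evidence of binding.

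The genes that act with mucins were described from lists, and the plot of these lists sets them beside the mucins. For comparison with the counts in these lists, 56.8% of all genes compared were higher on CS and 61.7% on CSHA than on TCP. At least 2-fold higher were 1.37% on CS and 3.02% on CSHA, and at least 2-fold lower 1.92% and 3.98%. Among 15 other mucin genes, 14 had a probe and 8 could be compared between CS and TCP, 4 of them higher and 4 lower, with a median of -0.06. MUC22 was at least 1.20 higher on CS, where the error of the difference was 1.45. Its signals were 5.79 on TCP, 66.0 on CS and 8.67 on CSHA, of which only that on CS was well above background. MUC19 was lower on CS by a bound of -1.45, with signals of 48.3, 15.7 and 35.2. Of the 3 MUC22 probes and the 7 MUC19 probes, no other gave a difference from TCP. On CSHA 3 of 7 were higher and 4 lower, with a median of -0.10, none reached 2-fold, and the values ran from -0.39 for MUC19 to 0.74 for CD164, a sialomucin. MUC2, the main gel-forming mucin of the colon, had probes of opposite sign, the brightest with -0.25 for CS and -0.10 for CSHA and another with 0.24 and 0.98.

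**Figure D4:**
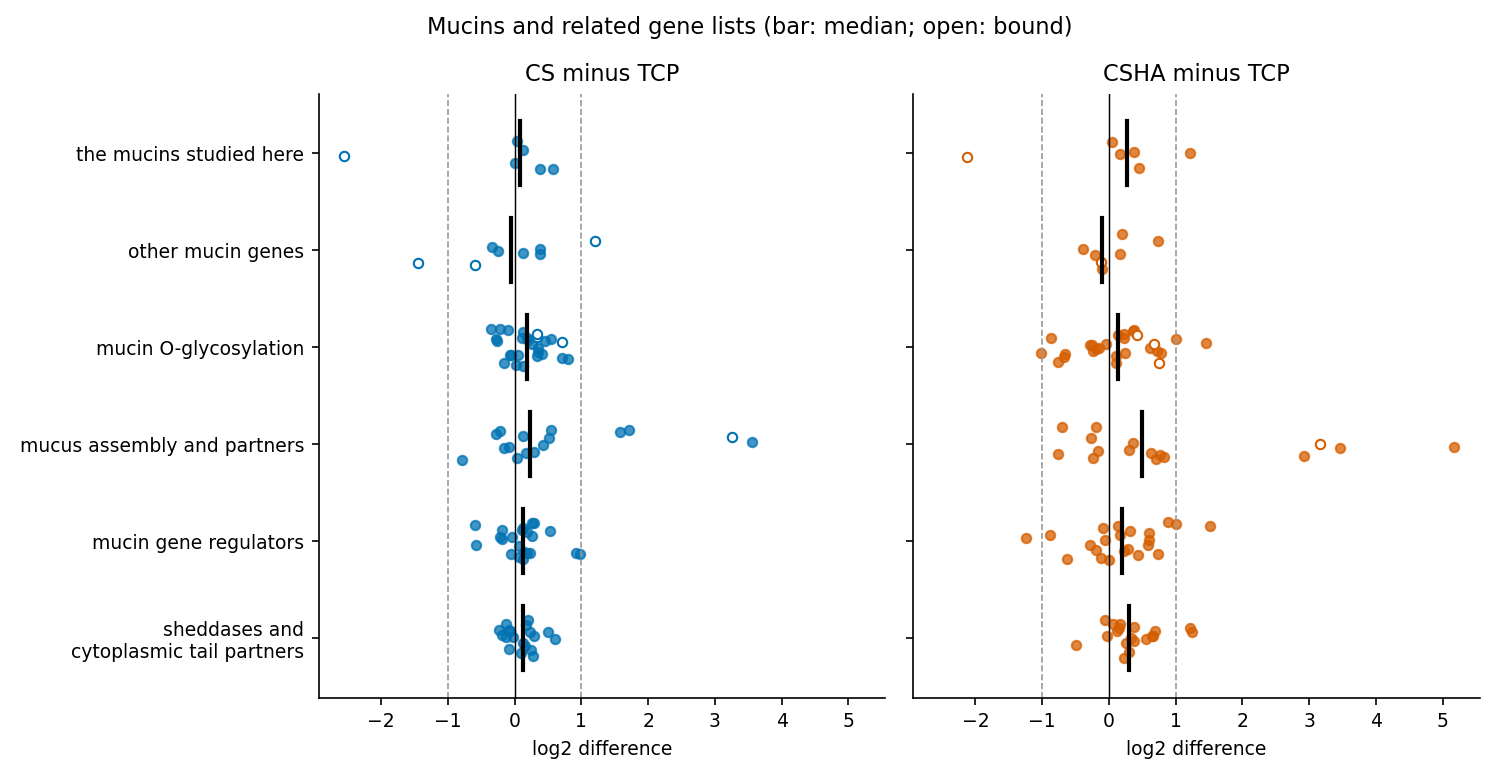
Each point is the log2 difference from TCP (x axis) of 1 gene of the mucins or of a related list (y axis), for CS on the left and CSHA on the right, with open circles for lower bounds, black bars for medians and dashed lines at 2-fold. The highest values lie in the list of mucus assembly and partners, up to 3.55 on CS and 5.17 on CSHA, while most genes of the other lists lie within 2-fold of TCP.

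Enzymes of O-glycosylation attach and extend the sugar chains of all these mucins. Of 30 such genes, 29 had a probe and 27 were compared. On CS 19 were higher and 8 lower than on TCP, with a median of 0.18, none reached 2-fold, and the values ran from -0.36 for GALNT2 to 0.80 for ST6GALNAC1. On CSHA 16 were higher and 11 lower, with a median of 0.14. ST6GALNAC1, which adds sialic acid to the first sugar of the chain and caps it, was at 1.45 ± 0.21, with signals of 308, 640 and 803 on TCP, CS and CSHA. FUT3, the Lewis fucosyltransferase, was at 1.002 ± 0.25. GALNT2, one of the enzymes that start the chains, was at -1.02 ± 0.21.

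The list of mucus assembly and partners held 4 genes at least 2-fold higher on both membranes, against 1.37% of all genes on CS and 3.02% on CSHA. Of its 20 genes, 16 were compared, and on CS 11 were higher and 5 lower, with a median of 0.23, while on CSHA 10 were higher and 6 lower, with a median of 0.49. AGR3, a disulfide isomerase of the family that folds secreted proteins, was at least 3.25 higher on CS and at least 3.16 higher on CSHA. The mucus protein FCGBP was at 1.58 and 3.46, the trefoil peptide TFF3 at 1.71 and 2.92 by its brightest probe, and SPINK4, a protease inhibitor of goblet cells, at 3.55 and 5.17. The other TFF3 probes were at 1.65 and 0.61 on CS and at 2.37 and 0.70 on CSHA. By the brightest probe of each gene, the lowest values were -0.78 on CS, for the cross-linking enzyme TGM2, and -0.76 on CSHA, for SYTL2, which takes part in vesicle release. A second TGM2 probe was lower still, at -1.07 on CS and -1.73 on CSHA. The mucins compared with TCP had no member above 1.21 by its brightest probe. This list has more compared genes and was chosen with earlier results known, so its range is no yardstick for the mucins.

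Of 25 regulators of mucin genes, 22 were compared. On CS 15 were higher and 7 lower, with a median of 0.12, and none reached 2-fold. KLF4, a factor of goblet cell maturation, was the highest at 0.98, and FOXM1, a factor of dividing cells, the lowest at -0.60. On CSHA 14 were higher and 8 lower, with a median of 0.20. FOXA2 was at 1.52 ± 0.20 and HNF4A at 1.01 ± 0.34, both of them factors of endodermal epithelium, and FOXM1 was at -1.25 ± 0.20. HNF4A lay near the limit of detection, with signals of 31.5 on TCP, 36.1 on CS and 60.3 on CSHA. Those of FOXA2 were 1044, 1808 and 2846.

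Sheddases that cut membrane mucins, and proteins that bind their tails, made up a list of 21 genes, of which 19 were compared. On CS 11 were higher and 8 lower, with a median of 0.12, between -0.24 for MSN, a linker of membrane and actin, and 0.61 for the metalloproteinase MMP14. On CSHA 16 were higher and 3 lower, with a median of 0.30. SRC, a kinase known to phosphorylate the MUC1 tail, had signals of 884 on TCP, 1147 on CS and 1950 on CSHA, which placed CS at 0.12 ± 0.20 and CSHA at 1.21 ± 0.20. ERBB3, a receptor that pairs with ERBB2, was at 0.51 and 1.24 by its brightest probe. Of its other probes, 1 was at -0.23 and -0.34 and 1 at 0.21 and 1.38. The lowest on CSHA was the adaptor GRB2 at -0.49. These counts were made with the 75th percentile shift alone, and the scaling to spike-in probes would raise every value on CSHA by the same amount.

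**Figure D5:**
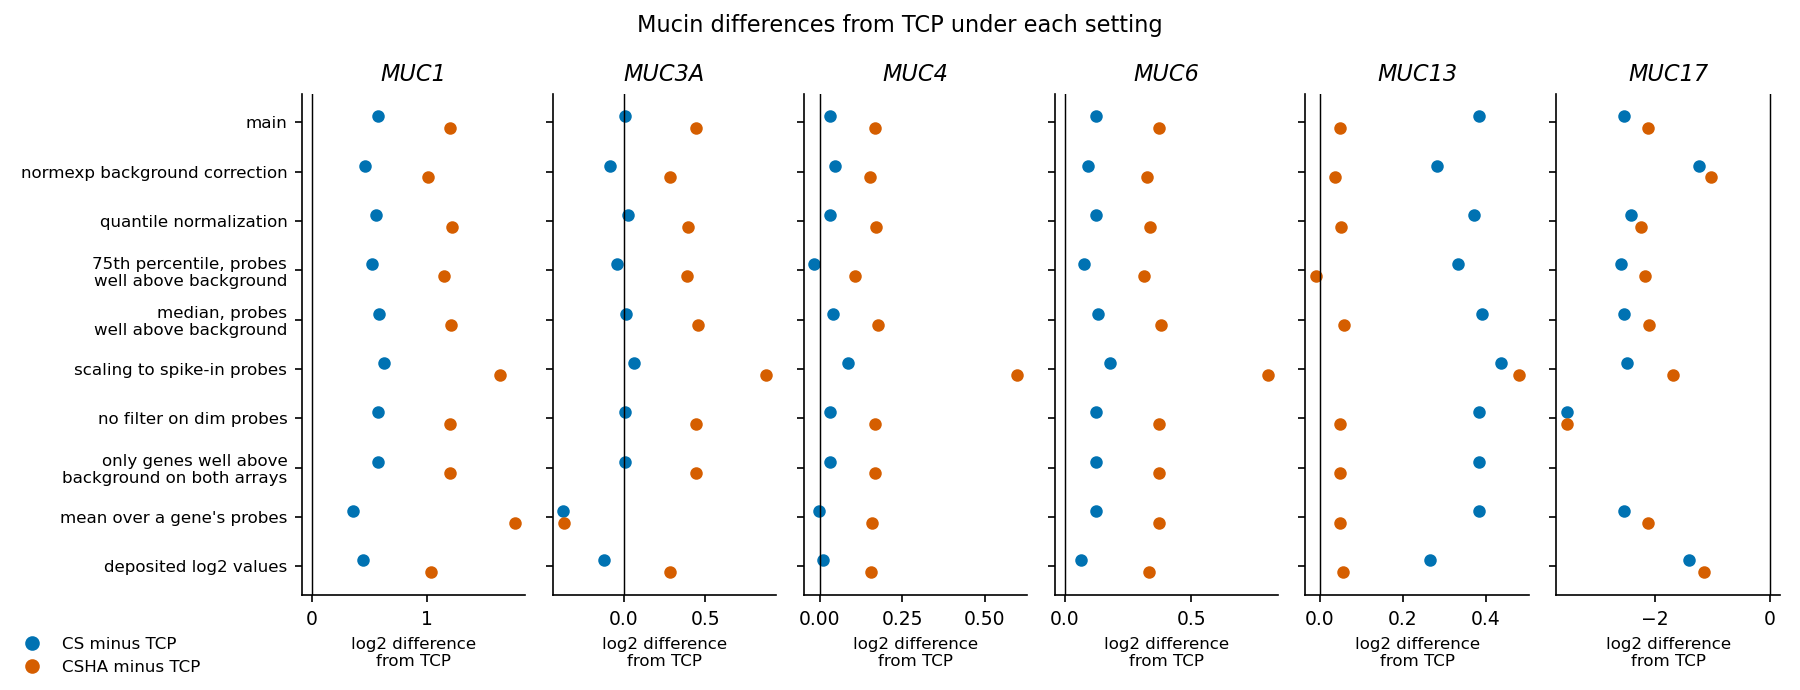
The log2 differences of CS (blue) and CSHA (orange) from TCP (x axes, a separate range for each mucin) are plotted for 6 mucins under each way of processing the arrays (y axis). MUC1 stays between 0.36 and 0.63 on CS and between 1.01 and 1.77 on CSHA, MUC17 stays below -1 throughout, and the MUC3A values change sign.

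Across the ways of processing the arrays, MUC1 was between 0.36 and 0.63 on CS and between 1.01 and 1.77 on CSHA, and above TCP in each. MUC17 was between -3.55 and -1.24 on CS and between -3.55 and -1.03 on CSHA. MUC6 was above TCP in each setting, between 0.07 and 0.18 on CS and between 0.31 and 0.80 on CSHA. MUC3A changed sign. Its values reached from -0.37 up to 0.06 for CS and from -0.37 up to 0.87 for CSHA, where only the mean over its probes was negative.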

How the data were processed

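HT29 RNA from TCP, CS and CSHA was hybridized in 1 colour to 3 Agilent arrays, 1 per group, on 1 slide. The deposited scanner output gives a background-corrected intensity per spot, with its error and flags, and the authors added a table of log2 values. At all 62976 spots the differences of the deposited log2 values between arrays equalled those of the log2 median signal plus a constant, within 9.85e-08. The deposited values, centred per spot and without background subtraction, therefore served only as an alternative setting. The methods state a floor of 1 and a shift by the 75th percentile, which were applied here to the processed signal. No spot was under the floor. Controls and spots flagged as outliers were not used. Accessions gave symbols through a RefSeq table (GRCh38.p14) for 30004 probes, or 59.3%, and 20595 stayed unnamed.

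A gene was represented by its brightest probe, and every probe of a mucin is described. For a bound, the dim array was set to the lowest detected signal on it (24.1 for TCP, 21.1 for CS and 22.6 for CSHA) or to the dim probe's own signal where that was higher. With 1 array per group no test was run, and the number of arrays limits the precision. The members and lists were chosen with earlier results of these data known. Genes were named by rule: all members, genes of each list at least 2-fold from TCP, otherwise its highest and lowest, and the 3 genes nearest to MUC1. ERBB2 is named as background only, and SRC, MUC2 and the cell markers belong to lists. The calculation was tested on simulated arrays. In these, detection was the same on every array, so the lower bounds, such as that of MUC17, were not tested. Python 3.11.15 with pandas 2.3.3, numpy 2.4.6 and matplotlib 3.10.9 was used, with limma 3.58.1 under R 4.3.3 for the normexp and quantile alternatives. The file headers and the methods name different versions of the scanner software, and the labels and methods different RNA and labelling kits.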

Additional observations from a re-analysis of the deposited data

How the results depend on the processing

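In all, 11 alternatives were tried for the 3 comparisons. Of 151 differences of single mucins under them, 129 stayed within the scanner error of the value reported and 22 did not. In all, 10 had the opposite sign, and 3 of these had been beyond their error. The other 7 were MUC3A and MUC4 on CS and MUC13 on CSHA, relative to TCP. With scaling to spike-in probes the median of the mucins was 0.70 between CSHA and TCP and 0.62 between CSHA and CS, 1 mucin (MUC1) was at least 2-fold higher on CSHA than on CS, and MUC13 turned to 0.043 between CSHA and CS. When the probes of a gene were averaged, MUC3A turned to -0.37 between CSHA and TCP and to -0.068 between CSHA and CS, and 1 mucin was at least 2-fold higher on CSHA than on CS. With genes required to be well above background on both arrays, 0 mucins were at least 2-fold lower on CS or on CSHA than on TCP, since MUC17 could not be compared. At a threshold of 1.5-fold 1 mucin was higher on CSHA than on CS, and at 3-fold 0 were higher on CSHA than on TCP. Over all settings the median of the mucins lay between 0.028 and 0.13 for CS against TCP, between 0.10 and 0.70 for CSHA against TCP and between 0.16 and 0.62 for CSHA against CS. The other counts did not change. The alternative with symbols from accessions alone gave no separate value, since symbols came from accessions throughout. No paired analysis was possible because each group has 1 array. Differences of probes near the lowest detected signal, such as the dim MUC3A and MUC17 probes, are limited by the signal over background, and leaving out a replicate could not be done.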
